A study of Mus musculus with 20 samples.

Results

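The genes described here are 10 genes of DNA replication: Mcm2, Mcm3, Mcm4, Mcm5, Mcm6 and Mcm7, which make up the replicative helicase, Pcna, the sliding clamp of the polymerases, and Rrm1, Rrm2 and Tyms, which supply deoxynucleotides. They were measured by every array probe that the scanner files name for them, 15 probes of 41174, and the 10 genes stand among 27557 gene names on the array. Of the 15 probes, 12 passed the filter on dim probes and represent all 10 genes; 20897 probes of the whole array passed it. RNA came from whole blood of 4 female C57Bl/6 mice, numbered 305, 310, 315 and 320, and each mouse was bled on 5 days. Day 0 blood was drawn before the inoculation, and day 10, day 15, day 20 and day 25 blood after Hepa1-6 cells, a mouse hepatoma line, had been placed under the skin, so that each group holds 4 arrays. All groups share the strain, the sex and the mice, and later blood of mice without a tumour was not analysed here, so time and tumour cannot be told apart.

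Before a cell copies its DNA, a ring of the 6 Mcm proteins is loaded on each origin as an inactive double ring, and it becomes the fork's motor when S phase starts. Pcna encircles the DNA behind the fork and holds polymerases and repair enzymes in place, and it also acts in repair outside S phase. Ribonucleotide reductase, built of the large Rrm1 and the small Rrm2 subunit, turns ribonucleotides into deoxyribonucleotides, and thymidylate synthase (Tyms) makes the thymine nucleotide. Most white cells of blood do not divide, while some immature cells released into blood, such as early red cells, still carry transcripts of dividing precursors.

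Each array gave a log2 ratio of the mouse sample (Cy5) over a common pool of blood RNA from untreated C57Bl/6 mice (Cy3), so that 0 means the level of that pool and a difference between days means a change relative to it. Values of a day are given in the order of mice 305, 310, 315 and 320. The share of the 45018 spots well above background in Cy5 was 37.7% to 51.2% per array. Precision depends on the number of arrays and also on the probe. With 4 arrays per day, the standard error (SE) of a difference between days was 0.07 for Mcm7 and 0.11 for the Mcm3 probe A_52_P364776. The median background-subtracted Cy5 intensity of an array was 48.9 to 67.6 on day 0, 16.4 to 20.3 on day 10, 12.6 to 15.9 on day 15, 12.9 to 16.2 on day 20 and 21.1 to 28.4 on day 25. The arrays of a day may lie on a shared slide, and then slide and day cannot be told apart. In bulk blood, fewer cells of a type and less RNA per cell cannot be told apart. Across all probes kept, the array of mouse 320 on day 0 had the lowest mean correlation with its own day. It was 0.487 with the other arrays of that day and 0.532 with the day 10 arrays, so results that rest on it are given with and without it. Other arrays also correlated more with another day. Mouse 305 on day 0 had 0.502 with its day and 0.559 with day 25. Mice 310, 315 and 320 on day 20 had 0.672, 0.681 and 0.666 with their day and 0.713, 0.719 and 0.696 with day 10. On day 20 the array of mouse 305 had the lowest mean correlation with its day, 0.564.

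The 10 genes did not move together. Mcm4, Mcm6, Mcm7, Pcna and Rrm1 had their lowest day mean on day 10 or 15 and a higher one on day 25. Rrm2 went the opposite way, with its highest mean on day 10 and its lowest on day 25. The fall from day 0 to day 10 or 15 passed for Mcm4, Mcm6, Pcna and Rrm1 but not for Mcm7. The rise from day 10 to day 25 passed for Mcm4, Mcm6, Mcm7 and Pcna but not for Rrm1 (adjusted p = 0.0768 in limma). Day 25 was not compared with day 15. Mcm3, Mcm5 and Tyms passed no test, and Mcm2 passed 1. In the F test over the 5 days, 6 of the 12 probes passed (limma, Benjamini-Hochberg adjustment over all 20897 probes, threshold 0.05), against a background of 55.8% of all probes, so the count of members is no larger than that of the array as a whole. The adjusted p was 0.000216 for Rrm2, 0.000963 for Mcm4, 0.0015 for Mcm6, 0.00424 for Rrm1, 0.00506 for Pcna and 0.0108 for Mcm7 in limma's F test. The changes were small with loess normalization. The largest between any 2 of the days compared was then the 0.672-fold level of Rrm2 on day 25 over day 10. Their size depended on the normalization. When arrays were centred on the median in place of loess, Mcm4 was at a log2 difference of -1.81 on day 15 against day 0. Mcm6 was at -1.76 there, where the median of all probes was -0.53. Pcna was at -1.34 on day 10 against day 0, where that median was -0.50.

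**Figure D1:**
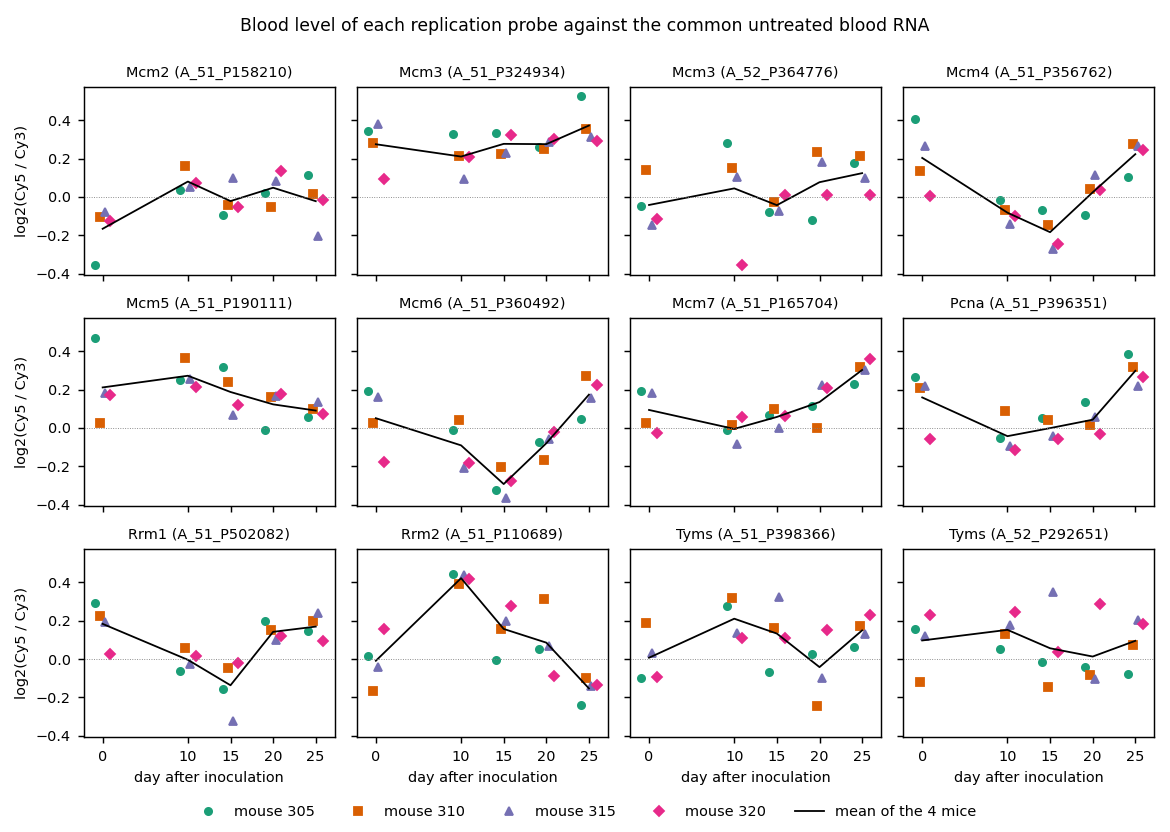
Log2 ratio of Cy5 over Cy3 (y axis) by day after inoculation (x axis) for the 12 probes kept, with 1 point per mouse and a line through the day means of the 4 mice. Mcm4, Mcm6 and Rrm1 dip on day 15, Pcna is highest on day 25, and the 4 values of Rrm2 on day 10 lie between 0.39 and 0.44.

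Between day 10 and day 0, Rrm2 and Mcm2 were higher and Mcm4 and Pcna lower, and 8 of the 12 probes passed in neither direction. Of all probes on the array, 15.1% were higher and 22.1% lower in this comparison, so 2 and 2 of 12 is near the background. Between day 15 and day 0 no member was higher and 3 were lower (Mcm4, Mcm6 and Rrm1), where the background was 17.1% higher and 22.3% lower. On day 20 none of the 12 probes passed against day 0 in limma (2 had an unadjusted p under 0.05), in a comparison where 6.98% of all probes were higher and 13.3% lower. On day 25 only Mcm7 passed against day 0, as higher, with a background of 5.42% higher and 10.7% lower. Against day 10, day 25 had 4 members higher (Pcna, Mcm7, Mcm4 and Mcm6) and 1 lower (Rrm2), beside 18.2% and 17.8% of all probes. Against day 20, day 25 had 2 members higher (Pcna and Mcm6) and none lower, beside 7.4% and 10.4% of all probes. Comparisons with the same day 0 or day 25 arrays share those arrays and are not independent of each other. The median log2 difference over the 12 probes lay between -0.05 and 0.12 across the 6 comparisons, and that over all probes between -0.07 and 0.04.

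**Figure D2:**
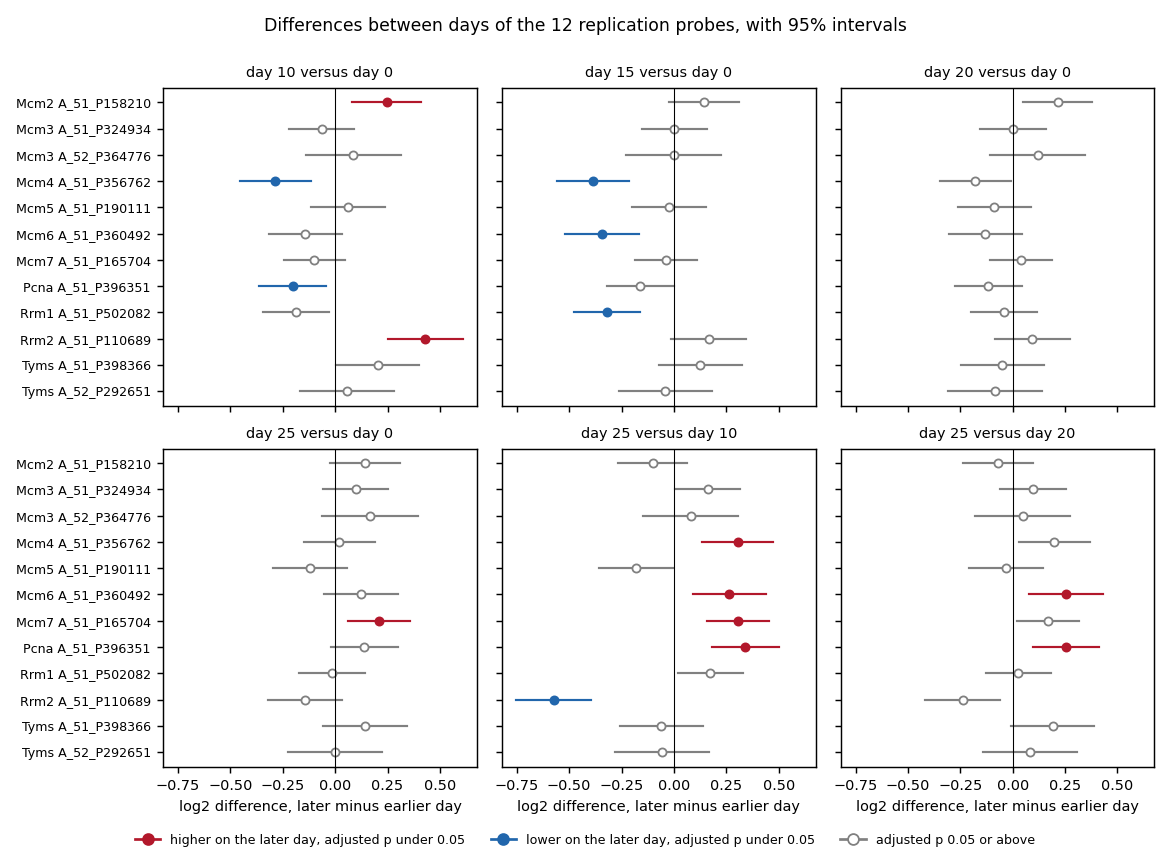
Log2 difference (x axis, later minus earlier day) of each of the 12 probes (y axis) in the 6 comparisons, with 95% intervals; filled red points were higher and filled blue points lower on the later day at an adjusted p under 0.05 in limma, and open grey points did not pass. On day 25 against day 10, Pcna, Mcm4, Mcm6 and Mcm7 lie to the right of 0 and Rrm2 to the left.

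The stretches before the gene starts are shown for the genes with opposite courses, since E2F factors are known regulators of replication genes. RefSeq (GRCm38.p6) gave a start for 9 of the 10 genes (all but Mcm4) and 10 starts in all, with 2 for Mcm7. Each sequence holds the 170 bases before the start, 5′ to 3′ on the gene's strand, with capitals for 8-letter E2F-type words (TTTGGCGC, TTTCCCGC, TTTCGCGC or TTTGCCGC) and for CCAAT, searched on both strands (CCAAT reads ATTGG and TTTCCCGC reads GCGGGAAA on the other strand). Mcm6 lies on the minus strand of chr1:128359706-128359875, Mcm7 on the minus strand of chr5:138171884-138172053, Pcna on the minus strand of chr2:132253181-132253350, Rrm1 on the plus strand of chr7:102441525-102441694 and Rrm2 on the plus strand of chr12:24708084-24708253.
Mcm6: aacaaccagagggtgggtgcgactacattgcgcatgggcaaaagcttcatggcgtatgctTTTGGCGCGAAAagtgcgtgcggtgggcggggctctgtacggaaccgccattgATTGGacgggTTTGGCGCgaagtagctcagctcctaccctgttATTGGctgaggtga
Mcm7: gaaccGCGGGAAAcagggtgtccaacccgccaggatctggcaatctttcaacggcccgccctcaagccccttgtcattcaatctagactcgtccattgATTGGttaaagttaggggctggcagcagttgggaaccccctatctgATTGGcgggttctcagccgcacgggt
Pcna: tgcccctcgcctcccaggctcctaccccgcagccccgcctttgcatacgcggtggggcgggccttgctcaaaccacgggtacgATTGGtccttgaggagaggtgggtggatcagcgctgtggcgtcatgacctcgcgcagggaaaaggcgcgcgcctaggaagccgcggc
Rrm1: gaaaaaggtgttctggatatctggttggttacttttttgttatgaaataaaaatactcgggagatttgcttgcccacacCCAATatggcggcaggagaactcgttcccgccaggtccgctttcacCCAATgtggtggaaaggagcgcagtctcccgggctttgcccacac
Rrm2: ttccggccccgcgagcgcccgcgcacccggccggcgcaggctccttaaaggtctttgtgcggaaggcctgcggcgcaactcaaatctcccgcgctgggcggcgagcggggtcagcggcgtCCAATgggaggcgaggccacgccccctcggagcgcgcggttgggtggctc
The Mcm6 stretch held 3 E2F-type words, 2 of which overlap on opposite strands, and 2 CCAAT words. Mcm7 held 1 E2F-type word and 2 CCAAT words in the stretch shown, and no E2F-type word before its other start. Pcna and Rrm2 held 1 CCAAT word each, Rrm1 held 2, and these letters of the E2F type were not in their stretches. Among 32841 stretches of this length in the table, 1.36% held an E2F-type word and 26.6% a CCAAT word, against 3 and 8 of the 10 member stretches. A match is a description of letters and shows no binding, and the genes with opposite courses, Pcna and Rrm2, both hold CCAAT.

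Mcm4 and Mcm6, subunits of the helicase ring, had the course with the lowest point on day 15. For Mcm4 the log2 ratios were 0.41, 0.14, 0.26 and 0.0040 on day 0 and -0.02, -0.07, -0.14 and -0.10 on day 10. They were -0.07, -0.15, -0.27 and -0.24 on day 15, -0.09, 0.04, 0.11 and 0.04 on day 20 and 0.10, 0.28, 0.27 and 0.25 on day 25. All 4 mice lay lower on days 10 and 15 than on day 0, with no overlap between the days, while mouse 320 on day 0 was the lowest of its day. Mcm4 fell to 0.765-fold on day 15 against day 0 (log2 difference -0.39, SE 0.08, 95% interval -0.56 to -0.22, adjusted p = 0.00104 in limma) and to 0.821-fold on day 10 (-0.29, SE 0.08, adjusted p = 0.0106 in limma). On day 25 it was 1.24-fold over day 10 (0.30, SE 0.08, adjusted p = 0.0061 in limma) and within 0.02 of day 0, with an interval of the difference of -0.15 to 0.19. The call of Mcm4 on day 15 held in all 14 alternative settings and without any 1 of the 20 arrays. That on day 10 against day 0 held without any 1 array and was lost in 3 of the 14 settings, among them the 2 days fitted alone (adjusted p = 0.0563 in limma). The call on day 25 over day 10 held without any 1 array and was lost in 2 settings, negative control spots as background (adjusted p = 0.0609 in limma) and the Cy5 channel alone (0.0507). A further Mcm4 probe, A_52_P231545, was not well above background on any array and has only a bound there.

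Mcm6 had log2 ratios of 0.19, 0.03, 0.16 and -0.18 on day 0 and -0.01, 0.04, -0.21 and -0.18 on day 10. Its values were -0.32, -0.20, -0.36 and -0.28 on day 15, -0.07, -0.17, -0.06 and -0.02 on day 20, and 0.05, 0.27, 0.16 and 0.22 on day 25. The 4 values of day 15 lay below all others of the gene except that of mouse 315 on day 10, and the 4 of day 25 lay above all of days 10 and 20. On day 15 the level was 0.788-fold that of day 0 (log2 difference -0.34, SE 0.08, adjusted p = 0.00333 in limma, lower in 4 of 4 mice). It was 1.2-fold on day 25 over day 10 (0.26, SE 0.08, adjusted p = 0.0183 in limma) and 1.19-fold over day 20 (0.25, SE 0.08, adjusted p = 0.0416 in limma). The last call was lost without any 1 of 8 arrays, which were mouse 320 on day 15, all 4 mice on day 20 and mice 310, 315 and 320 on day 25, with adjusted p up to 0.115 in limma. The call over day 10 was lost without mouse 315 on day 10 (adjusted p = 0.0644), mouse 320 on day 10 (0.0586) or mouse 310 on day 25 (0.0595), all in limma. Of the 14 settings, 3 lost the call over day 10, with the smallest difference in the Cy5 channel alone (0.11, adjusted p = 0.499 in limma), and 4 lost that over day 20, with the smallest in the scanner software's ratio (0.12, adjusted p = 0.394 in limma). The call on day 15 was lost in 1, the Cy5 channel alone (-0.24, adjusted p = 0.0834 in limma), and was kept without any 1 array.

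Mcm7, another ring subunit, showed no dip that passed a test, and its highest values were those of day 25. The log2 ratios were 0.19, 0.02, 0.18 and -0.03 on day 0 and -0.01, 0.01, -0.08 and 0.06 on day 10. Day 15 gave 0.07, 0.10, -0.0021 and 0.06, day 20 gave 0.11, -0.0022, 0.22 and 0.21, and day 25 gave 0.23, 0.32, 0.30 and 0.36. Every mouse had its highest value on day 25, and the 4 values of that day did not overlap with those of any other day. Against day 10 the level of day 25 was 1.24-fold (log2 difference 0.31, SE 0.07, adjusted p = 0.00193 in limma), a call that held in all 14 alternative settings and without any 1 array. Against day 0 it was 1.16-fold (0.21, SE 0.07, adjusted p = 0.0491 in limma, higher in 4 of 4 mice), a direction that turned to -0.14 when arrays were centred on the median in place of loess. It held in 3 of 14 settings. With the mouse as a block this call ended (adjusted p = 0.0579 in limma), and it held without 3 of the 20 arrays only (mouse 305 or 315 on day 0 or mouse 310 on day 20).

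Mcm2, Mcm3 and Mcm5 complete the ring. Mcm2 had log2 ratios of -0.36, -0.11, -0.08 and -0.13 on day 0 and 0.04, 0.16, 0.05 and 0.07 on day 10. Later values were -0.09, -0.04, 0.10 and -0.05 on day 15, 0.02, -0.05, 0.08 and 0.14 on day 20 and 0.11, 0.02, -0.20 and -0.02 on day 25. The values of day 0 lay below all of days 10 and 20, and mouse 305 on day 0 was the lowest of the 20. On day 10 the level was 1.19-fold that of day 0 (log2 difference 0.25, SE 0.08, adjusted p = 0.0207 in limma), a direction that turned to -0.52 with median centring, where the median of all probes was -0.50, and to -0.23 in the Cy5 channel alone. It held in 7 of 14 settings. Without mouse 305 on day 0 the difference was 0.18 (adjusted p = 0.0839 in limma), and without mouse 310 on day 10 it was 0.22 (0.0589). Mcm3 had 2 probes, whose day means ran between 0.21 and 0.37 for A_51_P324934 and between -0.04 and 0.12 for A_52_P364776, and over the 20 arrays they correlated at only r = 0.255. Mcm5 had day means of 0.21 ± 0.18, 0.27 ± 0.06, 0.19 ± 0.11, 0.12 ± 0.09 and 0.09 ± 0.03 on days 0, 10, 15, 20 and 25 (SD, n = 4 mice). On day 25 all 4 Mcm5 values lay below all 4 of day 10, with a log2 difference of -0.18 (95% interval -0.36 to -0.01, adjusted p = 0.0982 in limma), opposite in sign to Mcm4, Mcm6 and Mcm7 in the same comparison.

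Pcna, the clamp, was printed in 10 spots on each array, and the values are means over the spots. The log2 ratios were 0.27, 0.21, 0.22 and -0.06 on day 0, -0.05, 0.09, -0.09 and -0.12 on day 10, and 0.05, 0.04, -0.04 and -0.06 on day 15. Day 20 gave 0.13, 0.01, 0.06 and -0.03, and day 25 gave 0.39, 0.32, 0.22 and 0.26. Mouse 320 on day 0 lay among the day 10 values, whereas the other 3 mice of day 0 lay above all of days 10, 15 and 20. The SD over the 10 spots of an array had a median of 0.08 and was largest for mouse 305 on day 25, at 0.295, where the spots ran between 0.04 and 1.13. On day 25 Pcna was 1.27-fold over day 10 (log2 difference 0.34, SE 0.08, 95% interval 0.18 to 0.50, adjusted p = 0.00159 in limma), with no overlap, and 1.19-fold over day 20 (0.25, SE 0.08, adjusted p = 0.0245 in limma). The first of these held without any 1 array and was lost in 1 of 14 settings, the Cy5 channel alone (0.15, adjusted p = 0.22 in limma). The second was lost without mouse 310, 315 or 320 on day 20 or mouse 305 or 310 on day 25, with adjusted p up to 0.0785 in limma, and in 4 of 14 settings, with adjusted p of 0.051 to 0.0862. On day 10 Pcna was 0.87-fold the level of day 0 (-0.20, SE 0.08, adjusted p = 0.0438 in limma), a direction absent in the Cy5 channel alone, where the difference was 0.0049, and it held in 8 of 14 settings. This call was lost without any 1 of 9 arrays, namely mice 305, 310 and 315 on day 0, mice 305, 315 and 320 on day 10, mice 310 and 315 on day 20 and mouse 310 on day 25, with adjusted p up to 0.123 in limma. Without mouse 320 on day 0 it grew to -0.27 (adjusted p = 0.00536 in limma).

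Rrm1, the large subunit of ribonucleotide reductase, followed Mcm4 and Mcm6. Its log2 ratios were 0.29, 0.22, 0.19 and 0.02 on day 0, -0.06, 0.06, -0.03 and 0.02 on day 10, and -0.15, -0.05, -0.32 and -0.02 on day 15. Day 20 gave 0.20, 0.15, 0.10 and 0.12 and day 25 gave 0.15, 0.20, 0.24 and 0.09. All 4 values of day 15 lay below 0, and none of days 0, 20 or 25 did. On day 15 Rrm1 was at 0.801-fold the level of day 0 (log2 difference -0.32, SE 0.08, adjusted p = 0.00235 in limma, lower in 4 of 4 mice), a call kept without any 1 array. It was lost when the background model was fitted on all spots (-0.08, adjusted p = 0.535 in limma). Another Rrm1 probe, A_52_P606866, was not well above background on any array.

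Rrm2, the small subunit, whose synthesis in dividing cells is tied to S phase, had the opposite course. Its log2 ratios were 0.01, -0.17, -0.04 and 0.16 on day 0, 0.44, 0.39, 0.44 and 0.42 on day 10, and -0.0073, 0.16, 0.20 and 0.28 on day 15. Day 20 gave 0.05, 0.31, 0.07 and -0.09, and day 25 gave -0.24, -0.10, -0.14 and -0.14. The 4 values of day 10 lay above those of every other day, and those of day 25 lay below all of days 10, 15 and 20. On day 10 Rrm2 was 1.35-fold over day 0 (log2 difference 0.43, SE 0.09, 95% interval 0.25 to 0.61, adjusted p = 0.000867 in limma). On day 25 it was 0.672-fold the level of day 10 (-0.57, SE 0.09, adjusted p = 2.88e-05 in limma, lower in 4 of 4 mice), which held in all 14 alternative settings and without any 1 array. The call on day 10 against day 0 held without any 1 array and was lost in 5 of 14 settings, which gave differences of 0.05 to 0.705. Of these, median centring gave 0.05 where the median of all probes was -0.50. Rrm2 was the dimmest of the 12 probes, with a mean log2 brightness of 6.66. The probe was well above background in Cy5 on 18 of 20 arrays, with 2 of 4 on day 20. In Cy3 it was well above background on 15 of 20 arrays and on 0 of 4 on day 0, so the day 0 ratios, and with them the fold of day 10 over day 0, have a Cy3 signal not well above background below them. Its mean background-subtracted Cy5 intensity was 151 on day 0, 73.3 on day 10, 32.7 on day 15, 26.8 on day 20 and 41 on day 25.

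Tyms had 3 probes. A_51_P398366 had day means of 0.01, 0.21, 0.13, -0.04 and 0.15 on days 0, 10, 15, 20 and 25, with SDs of 0.07 to 0.17 over 4 mice. A_52_P292651 had day means of 0.10, 0.15, 0.06, 0.01 and 0.10, with SDs of 0.08 to 0.21. The mice of the days compared overlapped in all 6 comparisons for both probes, and no Tyms probe passed a test. The log2 difference of the first probe on day 10 against day 0 was 0.20, with a 95% interval of 0.0049 to 0.40 and an adjusted p of 0.0975 in limma. Over the 20 arrays both probes correlated at r = 0.347, and the third, A_51_P375761, was well above background on 2 of 20 arrays.

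Across the 20 arrays the genes fell into an Mcm4-like set, Rrm2 against it, and the others. These correlations are descriptions, and the points share the Cy3 pool, the normalization and any slide common to a day. Mcm4 and Mcm6 correlated at r = 0.888, Rrm1 and Mcm4 at 0.786, Pcna and Mcm6 at 0.783, and Pcna and Mcm7 at 0.724. Rrm2 correlated at -0.788 with Pcna, -0.749 with Mcm7, -0.63 with Mcm4 and -0.502 with Rrm1, its partner in the enzyme. Against the mean of the other 5 Mcm genes, Mcm6 correlated at 0.817, Mcm4 at 0.711, Mcm7 at 0.706 and Mcm3 at 0.506, while Mcm5 stood at -0.132 and Mcm2 at -0.373. Brightness ran beside this split: the mean log2 brightness over the arrays was 10.2 for Mcm6, 9.92 for Pcna, 9.71 for Mcm4 and 9.24 for Mcm7, against 6.66 for Rrm2, 7.19 for Mcm2 and 7.57 for Mcm5. Rrm1, at 7.29, was as dim as Mcm2 and followed Mcm4. The part of brightness in these correlations was not tested. Outside the members, the genes most like the mean of the 6 Mcm genes were Ms4a4b (r = 0.891), Hnrnpa3 (0.887), Dnajc9 (0.883), Cstf1 (0.872) and Rad21 (0.87), over 20 arrays.

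**Figure D3:**
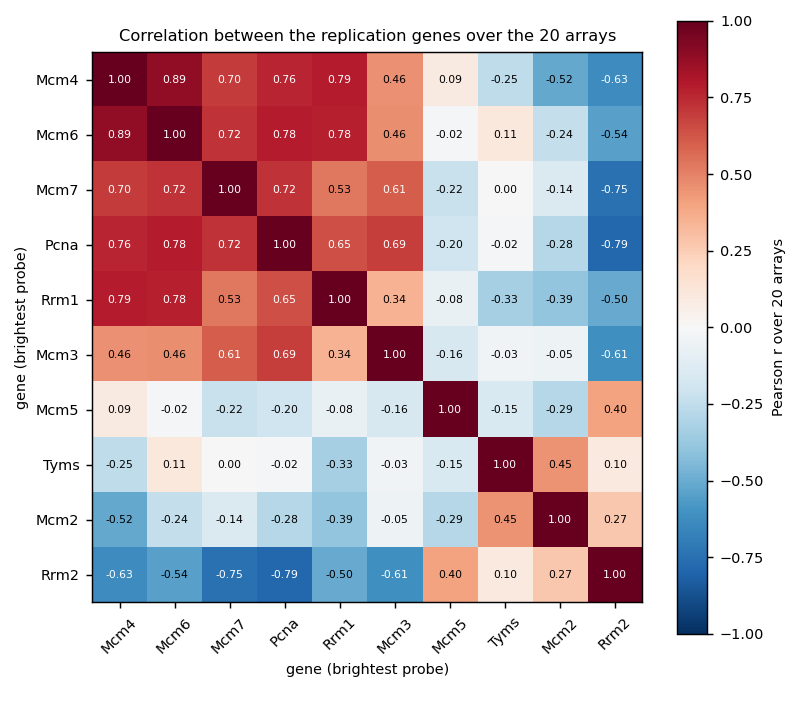
Pearson r over the 20 arrays between the log2 ratios of each pair of the 10 genes, each by its brightest probe, on a scale from blue (-1) to red (1). The block of Mcm4, Mcm6, Mcm7, Pcna and Rrm1 is red, Rrm2 is blue against all 5, and Mcm5, Tyms and Mcm2 lie outside the block.

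Other genes of the pathway were counted by list, each gene by its brightest probe. Of the origin licensing and helicase activation list, 22 of 27 genes were kept. Of them 1 was higher and 5 were lower on day 10 against day 0, and 0 were higher and 7 lower on day 15, with medians of -0.11 and -0.20 beside -0.07 and -0.06 over all probes. The lower share was 22.7% on day 10 and 31.8% on day 15, beside 22.1% and 22.3% of all probes, so that of day 10 is at the background. Orc6, a subunit of the origin recognition complex, fell by 0.34 on day 10 and by 0.35 on day 15 against day 0 (SE 0.07 each, adjusted p = 0.000907 and 0.000549 in limma). Timeless, a fork protection protein, was lower on all 4 later days than on day 0, by log2 differences of -0.40, -0.53, -0.37 and -0.32 on days 10, 15, 20 and 25 (SE 0.08 each). Of the list of polymerases and fork proteins, 32 of 34 genes were kept, of which 2 were higher and 6 lower on day 10 against day 0 and 8 higher and 1 lower on day 25 against day 10. These are 6.25% and 18.8%, and 25% and 3.12%, beside 15.1% and 22.1%, and 18.2% and 17.8%, of all probes. Among the genes of the list, Lig1, the ligase of the lagging strand, rose on day 10 by a log2 difference of 0.82 over day 0 and was at -1.26 on day 25 against day 10 (SE 0.13 each). Rfc1, the large subunit of the Pcna loader, was higher by 0.58 on day 25 than on day 10 (SE 0.11, adjusted p = 0.000359 in limma).

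The nucleotide supply list had all 28 genes kept, with 3 higher and 7 lower on day 10 against day 0 (10.7% and 25%), near the 15.1% and 22.1% of all probes. Mthfd2, a mitochondrial folate enzyme, had log2 differences of 1.56 on day 10 and 1.88 on day 15 against day 0 (SE 0.36 each), and Ctps, the CTP synthase named so in the table, had -0.36 and -0.44 (SE 0.08 each), all past the threshold. Mthfd2 was higher in 3 of the 4 mice on day 10 and in 4 of 4 on day 15. Among the 15 of 20 mitotic genes kept, 7 were higher and 2 lower on day 10 against day 0, and 0 higher and 10 lower on day 25 against day 10. These are 46.7% and 13.3%, and 0% and 66.7%, of the genes kept. The median of the mitotic list was 0.33 and -0.43 in these comparisons, beside -0.07 and 0.04 over all probes. Mki67, a protein of the surface of mitotic chromosomes, was higher by 1.06 on day 10 over day 0 and at -1.75 on day 25 against day 10 (SE 0.21 each, adjusted p = 0.000725 and 3.64e-06 in limma). The differences of Rrm2 had the sign of the mitotic median in both comparisons, as did those of Mcm2, Mcm5 and both Tyms probes kept. Those of Pcna, Mcm4, Mcm6, Mcm7, Rrm1 and the brighter Mcm3 probe had the opposite sign, which was also that of the median of all probes. The other Mcm3 probe followed neither pattern. Of the members, only Rrm2, Pcna and Mcm4 passed in both comparisons, while Mcm3, Mcm5, Rrm1 and Tyms passed in neither, so many of these signs rest on differences that did not pass. Both comparisons use the day 10 arrays. Of the G1 to S regulators, 25 of 30 were kept, with 5 higher and 7 lower on day 10 against day 0 (20% and 28%) and 6 higher and 11 lower on day 25 against day 10 (24% and 44%). All probes had 15.1% and 22.1%, and 18.2% and 17.8%, in these comparisons.

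Markers of blood cells moved beside the members, and their part in the results was not tested. The erythroid list had 9 of 12 genes kept, with 5 higher and 0 lower on day 10, 4 and 0 on day 15, 1 and 0 on day 20 and 0 and 5 on day 25, all against day 0. All 9 were lower on day 25 than on day 10, with a median log2 difference of -1.2. Of all probes, 15.1%, 17.1%, 6.98% and 5.42% were higher on days 10, 15, 20 and 25 against day 0. The lower shares were 22.1%, 22.3%, 13.3% and 10.7%, and on day 25 against day 10 the shares were 18.2% higher and 17.8% lower. The mean centred log2 ratio of 8 erythroid genes measured on every array ran between -0.49 and 0.64 on day 0, 0.34 and 0.58 on day 10, 0.21 and 0.61 on day 15, -0.06 and 0.31 on day 20 and -0.94 and -0.66 on day 25. Mouse 320 on day 0 had the highest of these, 0.64, where the other 3 mice of day 0 had -0.49, -0.17 and -0.29. Over the 20 arrays this mean correlated at -0.875 with Pcna, -0.834 with Mcm7, -0.773 with Mcm4, -0.769 with Mcm6, -0.712 with Mcm3 and -0.684 with Rrm1, and at 0.792 with Rrm2. The mean of the mitotic genes correlated at -0.853 with Pcna and 0.785 with Rrm2.

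**Figure D4:**
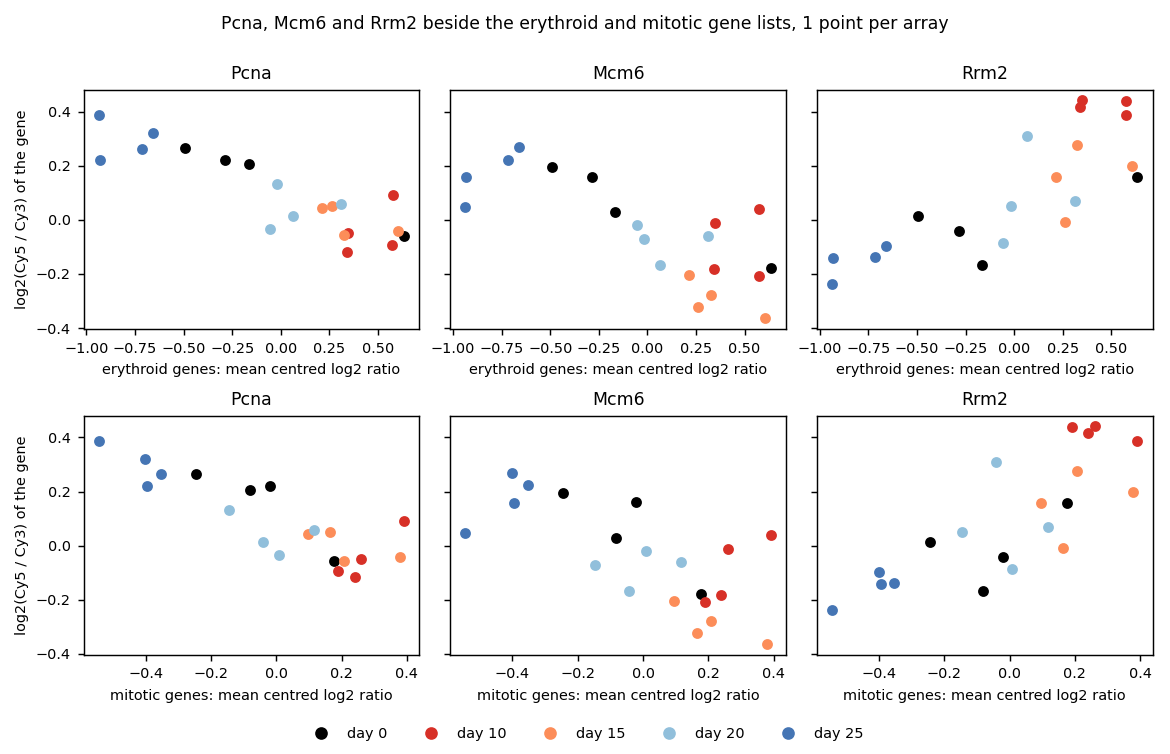
Log2 ratio of Pcna, Mcm6 and Rrm2 (y axis) against the mean centred log2 ratio of the erythroid genes (upper row) and of the mitotic genes (lower row), with 1 point per array coloured by day. Pcna and Mcm6 decline and Rrm2 climbs along both x axes, and the day 25 arrays lie at the low end of both lists.

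Other marker lists had correlations of both signs with the members. Their counts stand beside the same shares of all probes, and with so few genes per list several are near them. All 8 mature neutrophil genes kept of 9 were lower on each of days 10, 15, 20 and 25 than on day 0, and the mean of that list correlated at 0.311 with Pcna and -0.282 with Rrm2. The B cell list (6 of 6 kept) had 2 genes higher and 0 lower on day 25 against day 10 and a correlation of its mean of 0.668 with Pcna and -0.519 with Rrm2. The T cell list (5 of 6 kept) had 2 higher and 1 lower in that comparison, and its mean correlated at 0.781 with Mcm6 and -0.409 with Rrm2. Of the cytotoxic and NK cell list, 6 of 6 were kept and 0 passed in any of the 6 comparisons in limma, also at an unadjusted p under 0.05 (0 in each). Mouse 320 had the lowest mean of this list on every day, at -0.87, -0.74, -0.51, -0.64 and -0.64 on days 0, 10, 15, 20 and 25. The fit held no term for the mouse, so these counts do not show that the list was unchanged. The granulocyte precursor list had 6 of 8 kept, with 2 higher and 1 lower on day 10 against day 0. Of the monocyte, plasma cell, platelet and haematopoietic progenitor lists, 5 of 6, 5 of 5, 5 of 5 and 2 of 4 were kept, and on day 25 against day 10 they had 1, 2, 1 and 0 genes higher and 0, 0, 2 and 0 lower. Of the hepatoma and liver list, 5 of 8 were kept, and 3 were higher and 1 lower on day 10 against day 0 and 1 higher and 3 lower on day 25 against day 10. Its mean correlated at -0.715 with Pcna, -0.682 with Mcm4, -0.604 with Mcm6, 0.523 with Mcm2 and 0.458 with Rrm2.

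The array of mouse 320 on day 0 had the highest erythroid mean of its day and the lowest values of its day for Mcm4, Mcm6, Mcm7, Pcna and Rrm1. Without this array and that of mouse 305 on day 20, a choice made after seeing the data, 6 member probes passed on day 10 against day 0, with 2 higher and 4 lower. The added calls were Rrm1 (-0.24, adjusted p = 0.0182 in limma) and Mcm6 (-0.22, adjusted p = 0.0417 in limma). On day 15 against day 0, 4 passed, with Pcna added (-0.23, adjusted p = 0.0142 in limma), and on day 20 1 passed, again Pcna (-0.22, adjusted p = 0.0444 in limma). On day 25 against day 0 none passed, with Mcm7 at 0.17 (adjusted p = 0.166 in limma), and the 5 calls against day 10 and the 2 against day 20 were kept. Without only mouse 320 on day 0, 6 members passed on day 10 against day 0, beside 8515 of all 20897 probes. Mouse 305 on day 0 had the lowest erythroid mean of its day and its highest Mcm4, Mcm6, Mcm7, Pcna and Rrm1 values. Without only that array, 2 members passed on day 10 against day 0, with Pcna and Mcm2 lost, beside 6204 of all 20897 probes.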

How the data were processed

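Whole blood RNA of 4 mice on 5 days was measured on 20 two-colour arrays, and the groups and mouse numbers come from the labels. Cy5 held the mouse sample and Cy3 the common untreated blood, per the labels, and dyes were not swapped. The deposited scanner files hold spot and local background intensity in both channels, and the submitters' processing notes name Agilent Feature Extraction 9.1.3.1 as their source. The same software wrote, per the file headers, a log10 ratio after its own dye normalization. The deposited series table equals that log10 ratio in 900360 of 900360 values (tolerance 1e-06), so its scale and direction are known; it was used as an alternative. Flags of 0 or 1 were deposited beside each spot.

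Ratios were made with limma 3.58.1 (R 4.3.3): normexp background correction (offset 50), loess within each array with control spots at weight 0, and spots of a probe averaged. Fitted on all spots, normexp failed on many arrays, because a few spots had a local background far over the signal, with net signals down to -65252 in Cy5 and -65268 in Cy3. The median corrected Cy5 signal was then 74.8 to 807 per array, against 72.6 to 105 when spots marked non-uniform or with a net signal below -100 were left out (13 to 403 per array). The second fit was used and those spots were dropped, a choice made after seeing the data, with the fit on all spots as an alternative. Probes were kept if well above background in Cy5 on at least 4 of 20 arrays and if each day had at least 3 measured arrays. Days were compared by lmFit and eBayes on the 20 arrays together, two-sided, with Benjamini-Hochberg adjustment over all 20897 probes and a threshold of 0.05; the procedure was tested on simulated data. Intervals are at 95%.

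Mice pair the days, since each was bled 5 times. The main fit held day means without a term for the mouse, so its p-values do not use this pairing. A fit with the mouse as a block was an alternative. After subtracting day means, the mean r was 0.0686 over the 40 pairs of arrays of the same mouse (-0.28 to 0.397). Over 120 pairs of different mice on different days it was -0.0227 (-0.427 to 0.452). The second mean is not independent of the first, because the deviations cancel within each day. The p-values of the main fit speak for the spread between the arrays of these 4 mice within a day. All members and every probe are named; of each pathway list up to 4 genes with the smallest F test p could be named, by the brightest probe. The alternatives changed the background correction, the normalization, the filter, the probes per gene, the arrays fitted and the mouse block. The members and the lists were chosen with earlier results of these data known. Gene names were updated by accession for 56.8% of probes, by symbol for 16.4% and by synonym for 7.19%, and 19.7% kept the name in the file.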

Additional observations from a re-analysis of the deposited data

Results flagged for a closer look

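In 2 of the 60 sets of 4 arrays (12 probes on 5 days), 1 mouse lay far from the other 3; by Dixon's test about 1 in 20 such sets would be so by chance. For Mcm5 on day 20, mouse 305 had a log2 ratio of -0.01221, where the other 3 mice lay between 0.1625 and 0.1774, and this is the array of day 20 with the lowest correlation with its day. For the Tyms probe A_52_P292651 on day 20, mouse 320 had 0.2849, where the others lay between -0.1056 and -0.042. Neither probe passed a test in any comparison.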

How the results depend on the processing

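The 12 member probes passed 4, 3, 0, 1, 5 and 2 times on day 10, 15, 20 and 25 against day 0 and on day 25 against day 10 and day 20, and 6 times in the F test. Of all 20897 probes, 7764, 8225, 4242, 3369, 7541 and 3714 passed, and 11668 in the F test. Without background correction the member counts were 7, 6, 1, 1, 7 and 4, beside 8300, 8319, 3787, 3080, 9130 and 5014 of all probes. Without the filter on dim probes the last member count was 0, beside 2989 of 41118 probes. With negative control spots as background, day 10 and day 25 against day 0 and day 25 against day 20 gave 0 each. The counts of all probes were 4438, 1309 and 2077 there. Median centring, under which the median of all probes was -0.50, -0.53, -0.54, -0.22, 0.29 and 0.29 (-0.07, -0.06, -0.06, -0.05, 0.04 and 0.04 with loess), gave 11, 12, 12, 2, 10 and 10, and 12 in the F test. Under it 14002, 14014, 14498, 5604, 11875 and 10481 of all 20897 probes passed, and 15439 in the F test, so the shift was array-wide. Scaling between arrays gave 2 on day 10, 3 on day 25 against day 0 and 5 against day 20, beside 6174, 2823 and 5824 of all probes. The scanner software's log ratio gave 1 on day 10 against day 0 and 1 on day 25 against day 20, and the Cy5 channel alone gave 1 on day 20 and 1 on day 25 against day 20. The counts of all probes were 6423 and 3943 with the scanner ratio and 5175 and 4930 with Cy5 alone. The 2 days alone gave 1 on day 10 and 0 on day 25 against day 0, beside 4985 and 750 of all probes. Normexp on all spots gave 2 on day 10 and 0 on day 25, and called 2344 of all probes on day 10 against day 0, against 7764. On day 25 against day 0 the count was also 0 with 1 probe per gene, a filter of 10 arrays, an offset of 10, or without mouse 320 of day 0 and mouse 305 of day 20, and without these 2 arrays it was 1 on day 20. With the mouse as a replicate block it was 0 on day 25 against day 0, and the block changed no other call. Leaving out 1 array gave 2 to 6, 3 to 5, 0 to 1, 0 to 1, 4 to 6 and 0 to 3, and 6 in the F test; the lowest count on day 10 came without mouse 305 on day 0 and the highest on day 15 (5) without mouse 320 on day 0, and for day 25 against day 20 the count was 0 without mouse 310 or 315 on day 20 or mouse 310 on day 25 and 1 without mouse 320 on day 15, 305 or 320 on day 20, or 305, 315 or 320 on day 25. The 1 on day 20 came without mouse 320 on day 0. Reversed were Mcm2 on day 10 (-0.516 with median centring, -0.227 in Cy5 alone), Pcna on day 10 (0.00486 in Cy5 alone) and Mcm7 on day 25 against day 0 (-0.139 with median centring). Relative to the median of all probes under median centring, Mcm2 on day 10 stood at -0.0139, Rrm2 at 0.554 and Mcm7 on day 25 at 0.0777. The 10 control probes for added (spike-in) RNA, at weight 0 in the loess, also differed by day in the main normalization. Their median log2 ratio was -0.766, -0.267, -0.431, -0.7 and -1.4 on days 0, 10, 15, 20 and 25. The amounts of this RNA added were not examined. The cause of the shifts of the members and of these probes was not tested.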
